A study of Mus musculus with 12 samples.

Results

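Respiratory complex I was examined through its nuclear genes, which carry the symbol prefix Nduf, in bone marrow-derived macrophages (BMMs) of WT and IGF2BP2 KO mice. All genes whose symbol in the deposited comparison tables begins with Nduf were taken, except pseudogene symbols, which gave 47 of the 38887 genes in each library table. By known role, 7 of them encode core subunits, 32 accessory subunits and 8 assembly factors (the Ndufaf genes). One gene of the accessory class, Ndufa4, encodes a protein that is now assigned to complex IV, and it was kept because the symbol fits. All 47 genes are annotated as protein-coding, on 17 chromosomes of GRCm38.

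BMMs were grown from bone marrow with 50 ng/ml M-CSF for 6 days. They were then left untreated (M0) or received 20 ng/ml IL-4 for 8 h (M2), so that 4 groups were compared: WT M0, WT M2, KO M0 and KO M2, each with 1 library from each of 3 mice. In KO mice, loxP sites flank exons 4 and 5 of Igf2bp2 and Cre is driven from the Lyz2 locus, which is active in myeloid cells. WT mice were littermates without floxed alleles, some of them with Cre, and the animals of both genotypes were 3 to 4 months old.

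Complex I is the entry point of the respiratory chain, where NADH is oxidized, ubiquinone is reduced and protons are pumped across the inner mitochondrial membrane. Its core subunits carry the flavin, the iron-sulfur clusters and the quinone site, its accessory subunits surround and stabilize this core, and assembly factors build it in modules and then leave it. The membrane-bound core subunits are encoded by the mitochondrial genome, whose genes were not analysed here. Macrophages activated with IL-4 are known for relying on oxidative phosphorylation.

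The sequences before the start sites of these genes are shown because many Nduf promoters are known to lack a TATA box and to carry sites for housekeeping factors. RefSeq windows (GRCm38.p6) from 250 bases before to 50 bases after a start site were found for 40 of the 47 genes, in 42 windows. Searched on both strands were an NRF1-type site and a spaced STAT6-type palindrome. The search also took the YY1-type site AAGATGGC and, for ETS factors, CCGGAAG. The GC box was GGGCGG. The TATA box was TATAAA and the E box CACGTG. An NRF1-type site was present in 10 of the 42 windows (23.8%, against 4.6% of all 32851 windows), and a YY1-type site in 8 (19%, against 2.75%). A GC box was present in 22 windows (52.4%, against 35.7%) and an ETS-type site in 6 (14.3%, against 8.86%). The other motifs were found in 5 windows for the TATA box (11.9%, against 13.6%), 3 for the E box (7.14%, against 7.15%) and 3 for the STAT6-type site (7.14%, against 6.95%). The median GC content was 59.3% in the Nduf windows and 52.7% in all windows, and these matches are descriptions of letters, not of bound sites.

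Printed below are the windows of Ndufs3 (chr2:90904672-90904971, minus strand) and Ndufaf4 (chr4:24897833-24898132, plus strand), which rose with IL-4 in KO macrophages, of Ndufaf8 (chr11:120098684-120098983, plus strand), which had the largest difference between the IL-4 responses, of Ndufaf7 (chr17:78936885-78937184, plus strand), which fell with IL-4, and of Ndufb4 (chr16:37654319-37654618, minus strand), with the most NRF1-type matches. Each runs 5′ to 3′ along the gene, and capitals mark matches to any of the searched motifs. Ndufs3 holds 2 ETS-type sites and 2 GC boxes, of which 1 overlaps an ETS-type site, Ndufaf4 holds an NRF1-type site and 2 overlapping GC boxes, Ndufaf8 holds a GC box, an ETS-type and a YY1-type site, Ndufaf7 holds 1 GC box, and Ndufb4 holds 3 NRF1-type sites and a GC box.
Ndufs3: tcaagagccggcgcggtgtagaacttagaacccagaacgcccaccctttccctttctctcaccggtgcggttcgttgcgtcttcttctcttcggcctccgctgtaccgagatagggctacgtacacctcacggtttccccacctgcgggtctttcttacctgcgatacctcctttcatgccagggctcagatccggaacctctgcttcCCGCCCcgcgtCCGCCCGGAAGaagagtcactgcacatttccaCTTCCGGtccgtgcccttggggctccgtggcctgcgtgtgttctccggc
Ndufaf4: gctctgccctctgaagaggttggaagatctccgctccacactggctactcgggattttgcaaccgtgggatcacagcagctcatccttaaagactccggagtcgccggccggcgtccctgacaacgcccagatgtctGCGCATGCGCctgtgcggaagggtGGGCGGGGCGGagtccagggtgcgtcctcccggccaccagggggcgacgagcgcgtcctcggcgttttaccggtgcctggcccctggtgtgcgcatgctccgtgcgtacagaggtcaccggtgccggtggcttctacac
Ndufaf8: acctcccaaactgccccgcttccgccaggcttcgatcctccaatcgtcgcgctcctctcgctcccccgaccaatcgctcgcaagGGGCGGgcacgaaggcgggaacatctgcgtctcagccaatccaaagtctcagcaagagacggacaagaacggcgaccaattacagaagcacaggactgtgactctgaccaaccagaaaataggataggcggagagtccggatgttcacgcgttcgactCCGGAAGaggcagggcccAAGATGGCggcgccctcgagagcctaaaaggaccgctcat
Ndufaf7: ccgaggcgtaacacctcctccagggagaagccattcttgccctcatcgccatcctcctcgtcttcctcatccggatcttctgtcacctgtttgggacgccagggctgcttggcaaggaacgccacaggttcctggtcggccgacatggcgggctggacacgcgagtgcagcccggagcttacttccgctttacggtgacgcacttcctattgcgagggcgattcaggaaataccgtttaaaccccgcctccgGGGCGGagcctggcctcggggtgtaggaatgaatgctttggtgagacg
Ndufb4: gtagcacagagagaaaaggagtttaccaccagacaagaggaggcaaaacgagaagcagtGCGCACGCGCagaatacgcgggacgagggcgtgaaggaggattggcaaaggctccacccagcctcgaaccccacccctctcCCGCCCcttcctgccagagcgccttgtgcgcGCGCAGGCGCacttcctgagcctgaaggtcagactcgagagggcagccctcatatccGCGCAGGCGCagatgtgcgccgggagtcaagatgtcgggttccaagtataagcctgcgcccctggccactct

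The libraries were checked before the genes were compared. Library totals were between 20011792 and 22744704 expected counts in WT M2 and between 24942666 and 39632770 in the other groups, and every Nduf gene that was tested had at least 93 counts in every library. Igf2bp2 had 76.5 to 118 CPM (counts scaled by library size) in untreated WT cells and 84.9 to 95.9 in untreated KO cells. With IL-4 it had 178 to 233 CPM in WT and 129 to 146 in KO. Gene-level counts do not separate the exons flanked by loxP from the others, and single exons were not examined. The log2 change of Igf2bp2, KO over WT, was -0.11 in M0, where it was not called by edgeR. In M2 it was -0.65 and called. The deletion was therefore not visible at this level in M0. The paper itself reports near-undetectable Igf2bp2 mRNA and protein in KO BMMs, by separate assays. Lyz2, the Cre locus, had 4185 to 10540 CPM in WT and 11 to 33.2 CPM in KO. The summed level of 7 macrophage markers was 3485 to 4309 TPM (the deposited level, scaled by transcript length) over all libraries. IL-4 changed 6 of these 7 in WT (4 higher, 2 lower) and 4 in KO (2 higher, 2 lower), and Itgam was called higher in KO M0 (log2 change 0.45, edgeR adjusted p = 0.00396). IL-4 also raised Mrc1, the mannose receptor, by a log2 change of 3.27 in WT and 3.96 in KO.

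2 libraries stood apart from the rest in transcript length and, within their groups, in the Nduf genes. The mean effective transcript length, weighted by TPM, was 1680 bases in WT M0 replicate 3 and 1684 bases in KO M2 replicate 1, and 1751 to 1791 bases in the other 10 libraries. Nduf transcripts are short, with a median effective length of 664 bases. In WT M0 replicate 3, 41 of the 45 tested Nduf genes lay above the mean of the other 2 libraries of the group, by a median of 0.18 on the log2 scale, and in KO M2 replicate 1 it was 42 of 45, by 0.17. KO M2 replicate 1 held the highest value of all 12 libraries for 27 of the 45 genes and WT M0 replicate 3 for 10, against 0 to 2 in each other library. The deviation was similar in the shorter and the longer Nduf genes, split at the median effective length, with medians of 0.19 and 0.17 in WT M0 replicate 3 and 0.17 and 0.18 in KO M2 replicate 1. In the other direction, WT M0 replicate 1 had a median deviation of -0.13 from the rest of its group and KO M2 replicate 2 one of -0.16, each with 3 of the 45 genes above. The part of transcript length in these deviations was not tested. Counts of called Nduf genes in the main comparisons are therefore given with and without these 2 libraries, a choice made after the data were seen.

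**Figure D1:**
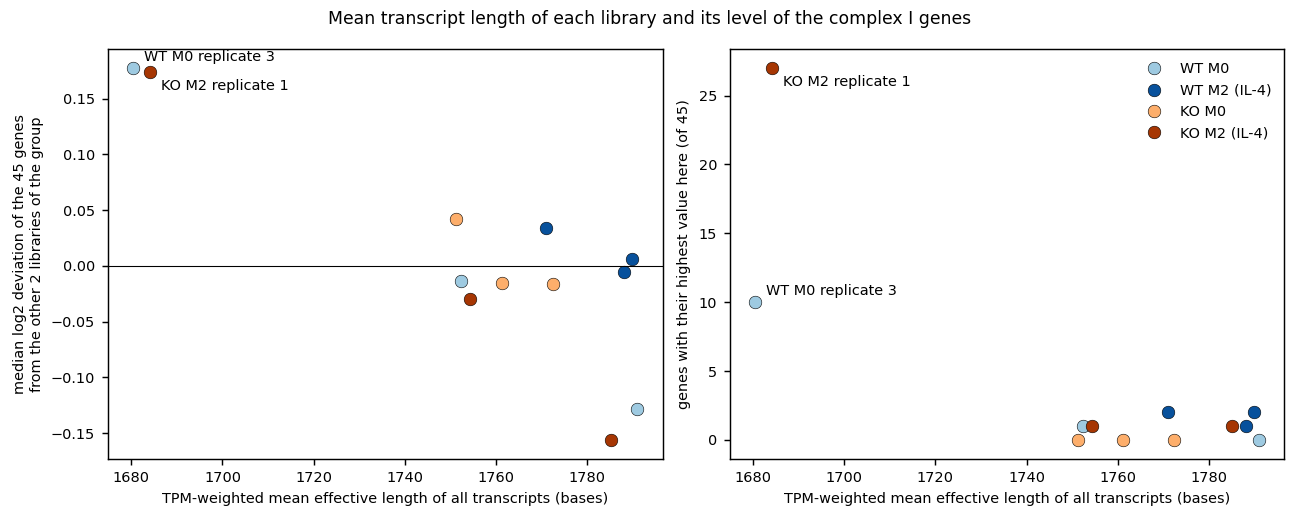
TPM-weighted mean effective transcript length of each of the 12 libraries (x axis, bases) against the median log2 deviation of the 45 tested Nduf genes from the other 2 libraries of the group (left) and against the number of Nduf genes whose highest value lies in that library (right). WT M0 replicate 3 (1680 bases) and KO M2 replicate 1 (1684 bases) stand left of the other 10 libraries (1751 to 1791 bases) and above them in both panels.

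The Nduf genes were expressed at similar levels in all 4 groups. Their TPM summed to 5505 ± 159 in M0 and 5454 ± 5.49 in M2 for WT, and to 5321 ± 51.7 in M0 and 5567 ± 252 in M2 for KO (mean ± SD, n = 3), which is between 0.527% and 0.582% of all TPM in every library. In KO M2 the 3 libraries were 5822, 5318 and 5561 TPM, and in WT M0 they were 5352, 5493 and 5669 TPM, so that the highest of each group was the library with the shortest transcripts. The groups overlapped, with the exception that all WT M2 libraries (5448 to 5458 TPM) lay above all KO M0 libraries (5269 to 5372 TPM), which is no comparison of the design.

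Levels differed more between subunits than between groups. Over the 12 libraries the median TPM was 114 for the 7 core subunits, 143 for the 30 tested accessory subunits (19.6 to 362) and 18.6 for the 8 assembly factors (9.3 to 32.7). Outside Ndufa4, 32 of the 36 tested subunits lay between 50 and 250 TPM, and by mean level the assembly factors overlapped only the least abundant subunit. In single libraries Ndufaf2 also reached the lowest values of Ndufb4 (35.7 TPM) and Ndufs4 (39.8 TPM). Among core subunits Ndufs1, the largest of them and a carrier of iron-sulfur clusters, was lowest with 70.3 to 91.2 TPM.

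Among accessory genes Ndufa4 was highest with 317 to 401 TPM, followed by Ndufb8, a subunit of the distal membrane arm, with 306 to 338 TPM. The lowest tested accessory subunit was Ndufa11, which sits at the base of the membrane arm, with 17 to 21.1 TPM, and the ratio of Ndufb8 to Ndufa11 was 16.4. Ndufa11 had a mean effective length of 2580 bases in the tables against 561 for Ndufb8, and TPM divides by this length. Ndufa4l2, a paralog of Ndufa4 that is known to be induced by hypoxia, reached at most 0.15 TPM and Ndufb11b was listed at 0 in every library, so neither passed the filter and 45 of 47 genes were tested.

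Among assembly factors Ndufaf2 was highest with 27.8 to 41.3 TPM and Ndufaf7 lowest with 6.7 to 12.9 TPM. Read sharing limits some values: 19 of the 47 genes share exon bases with another annotated gene, 3 of them (Ndufb2, Ndufb8 and Ndufb9) on the same strand. The posterior SD of the count, which reflects reads that match several places, reached 3.05% of the count for Ndufab1 and 5.27% for Ndufb4, and was below 1.2% for every other tested Nduf gene. Over all 12 libraries the median coefficient of variation was 7.16% in TPM (3.04% for Ndufb8 to 24.1% for Ndufaf7), against 12.1% for the 9464 tested genes that were at least as abundant as the lowest Nduf gene. Within groups the spread was not smaller than that of these genes, with a median SD of 0.10 on the log2 scale for the Nduf genes and 0.09 for the 9464 genes.

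**Figure D2:**
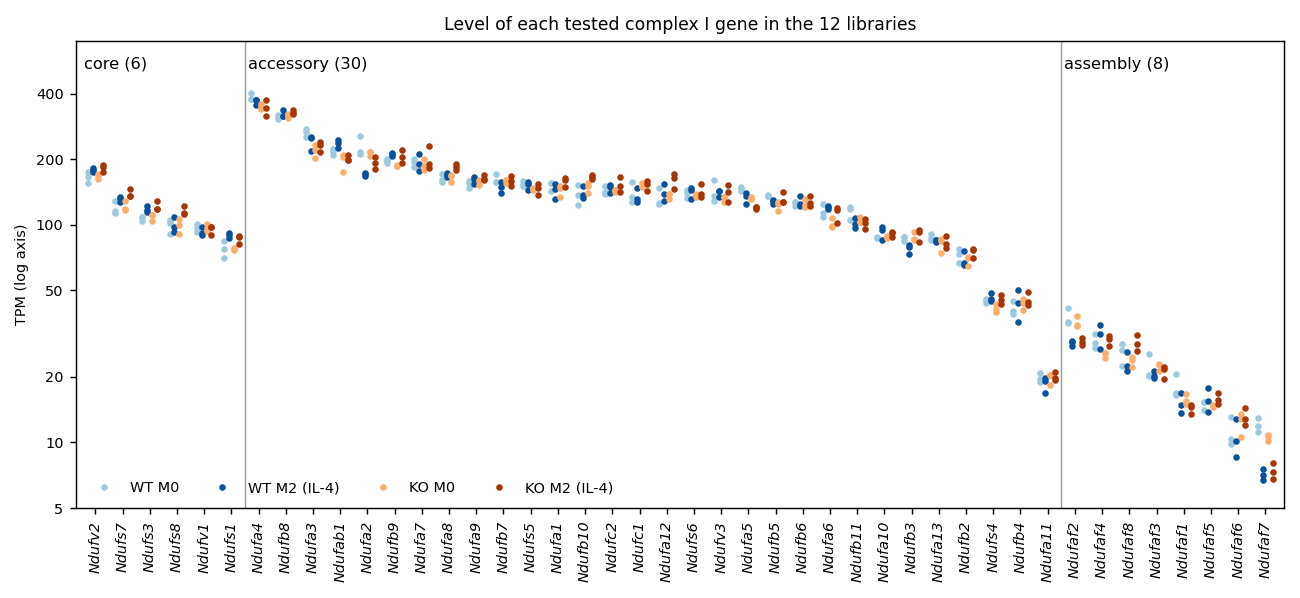
TPM (log axis) of 44 of the 45 tested Nduf genes in the 12 libraries, ordered by mean level within the core, accessory and assembly classes; each point is 1 library and the color gives the group. Core subunits lie around 114 TPM and accessory subunits around 143 TPM, whereas the means of the assembly factors lie between 9.3 and 32.7 TPM. Groups do not overlap for every gene: in CPM, KO M2 was apart from KO M0 for 26 higher and 2 lower genes of 45.

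Whether IL-4 changes complex I expression was asked in WT macrophages, M2 against M0. Of the 45 tested genes 5 rose and 3 fell (edgeR, adjusted p under 0.05), or 17.8%, in a comparison in which 50% of all 12846 tested genes were called (24.9% higher, 25.1% lower). The median log2 change of the Nduf genes was 0.07, against -0.01 for all genes, and 29 of 45 values were above 0, against 49.1% of all genes. Without WT M0 replicate 1 the median was 0.00 and without WT M0 replicate 3 it was 0.12. M0 and M2 libraries did not overlap for 7 higher and 3 lower Nduf genes, against 55.2% of all genes (27.9% higher, 27.3% lower). Rising were the core subunits Ndufs1 and Ndufs3, the acyl carrier protein Ndufab1, and Ndufa10 and Ndufa9. Falling were the assembly factors Ndufaf7 and Ndufaf2 and the accessory subunit Ndufa2.

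Ndufs1 (ENSMUSG00000025968, chr1:63143596-63176833) had 118, 111 and 106 CPM in WT M0 and 131, 137 and 138 CPM in WT M2. All 3 M2 libraries lay above all M0 libraries, and the log2 change was 0.27 (SE 0.05 and adjusted p = 0.000289 by edgeR). Ndufs3 (ENSMUSG00000005510, chr2:90894634-90904827), a core subunit of the quinone module, had 48.3, 50 and 50.7 CPM in WT M0 and 55.6, 57.8 and 60.4 CPM in WT M2. These groups did not overlap either, with a log2 change of 0.22 (SE 0.06 and adjusted p = 0.00952 by edgeR).

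Ndufab1 (ENSMUSG00000030869, chr7:122085403-122101886), the mitochondrial acyl carrier protein that also serves fatty acid and lipoate synthesis, had 52.8, 54.3 and 52.5 CPM in WT M0 and 62.4, 63.2 and 63.1 CPM in WT M2. The groups were well apart, with a log2 change of 0.24 (SE 0.06 and adjusted p = 0.00461 by edgeR). Ndufa10, a subunit of the membrane arm, had 88.8, 91.2 and 94.6 CPM in WT M0 and 105, 107 and 93.8 CPM in WT M2. Here 1 M2 library lay within the M0 range, and the log2 change was 0.16 (SE 0.06 and adjusted p = 0.0409 by edgeR).

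Ndufaf7 (ENSMUSG00000024082, chr17:78937136-78948052) encodes a mitochondrial methyltransferase that acts early in assembly. It had 13.3, 14.5 and 16.6 CPM in WT M0 and 8.59, 9.17 and 9.71 CPM in WT M2. The groups were clearly separated and the log2 change of -0.69 (SE 0.10 and adjusted p = 0.000105 by edgeR) was the largest of any Nduf gene in either genotype.

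Ndufaf2 (ENSMUSG00000068184, chr13:108002715-108158623), a paralog of Ndufa12 that acts late in the joining of the NADH-binding module, had 11.3, 13.4 and 12.4 CPM in WT M0 and 9.95, 10.1 and 9.61 CPM in WT M2. All M2 libraries were lower, with a log2 change of -0.32 (SE 0.09 and adjusted p = 0.00763 by edgeR). Ndufa2, an accessory subunit of the NADH-binding module, had 55.2, 57.8 and 72.5 CPM in WT M0 and 47.4, 49 and 48.7 CPM in WT M2. The M0 value of 72.5 was that of replicate 3, the library with short transcripts, and the log2 change was -0.35 (SE 0.09 and adjusted p = 0.00718 by edgeR) with it and -0.23 (SE 0.05 and adjusted p = 0.00282 by edgeR) without both such libraries.

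The numbers of called genes moved with the pairing and with these 2 libraries. M0 and M2 libraries of 1 mouse varied together, and with the mouse as a block 13 Nduf genes were called in WT (10 higher, 3 lower), against 54.6% of all genes (27.3% in each direction), with Ndufs7, Ndufv2, Ndufb8 and Ndufb9 among those added. Without WT M0 replicate 3 and KO M2 replicate 1 there were 17 calls (14 higher, 3 lower), against 50.6% of all genes (25.8% higher, 24.8% lower), and with both the omission and the block there were 21 (18 higher, 3 lower), against 55.6% (28.3% higher, 27.2% lower). The split between rises and falls depended on scaling: with library totals only, 1 gene rose (Ndufs1) and 5 fell, the median of the Nduf genes was -0.03 and that of all genes -0.10, and with limma on log2(TPM + 1) 2 rose (Ndufs1 and Ndufs3) and 6 fell with a median of 0.00 against -0.05 for all genes. Ndufs1, Ndufaf7, Ndufaf2 and Ndufa2 kept their calls in all 25 alternatives.

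In KO macrophages IL-4 raised 16 Nduf genes and lowered 2, or 40% of the 45, in a comparison in which 52.8% of all genes were called (26.8% higher, 26% lower). The median log2 change was 0.15, against 0.01 for all genes, and 40 of 45 values were above 0, against 51.5% of all genes. M0 and M2 libraries did not overlap for 26 higher and 2 lower Nduf genes, against 63.4% of all genes (32.1% higher, 31.3% lower). Rising were core subunits, among them Ndufs1, Ndufs3, Ndufs7, Ndufs8 and Ndufv2, 8 of 30 accessory subunits and the assembly factors Ndufaf4 and Ndufaf8. Ndufaf7 and Ndufaf2 fell.

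Among core subunits in KO, Ndufs8, which holds iron-sulfur clusters near the quinone site, had 44.3, 49.3 and 52.5 CPM in M0 and 66.2, 56.9 and 57.9 CPM in M2. Its log2 change was 0.31 (SE 0.09 and adjusted p = 0.0142 by edgeR). Ndufs3 had 51, 50.5 and 46.9 CPM in KO M0 and 65.8, 56.5 and 59 CPM in KO M2, a log2 change of 0.29 (SE 0.06 and adjusted p = 0.00149 by edgeR). In both genes the highest M2 value was that of replicate 1, and all M2 libraries lay above all M0 libraries.

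Ndufs7, which carries the last iron-sulfur cluster before ubiquinone, had 46.5, 43.2 and 43.9 CPM in KO M0 and 59.2, 51.3 and 52.4 CPM in KO M2, and Ndufs1 had 110, 112 and 114 CPM in KO M0 and 131, 132 and 134 CPM in KO M2. Their log2 changes were 0.28 and 0.24 (SE 0.08 and 0.05, edgeR adjusted p = 0.0081 and 0.000649). Ndufs1 did not depend on replicate 1, which was its lowest M2 library. Ndufv2 rose by 0.21 (edgeR adjusted p = 0.0197), and Ndufv1, which binds NADH and the flavin, had a log2 change of 0.09 in KO and 0.03 in WT and was not called in either.

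Among the accessory subunits Ndufa12, the partner that replaces Ndufaf2 in the finished complex, had 36.1, 38.7 and 38.7 CPM in KO M0 and 52.1, 41.9 and 46.9 CPM in KO M2. The groups did not overlap and the log2 change was 0.31 (SE 0.10 and adjusted p = 0.019 by edgeR). The other accessory subunits that rose were Ndufa8 (0.24), Ndufa6 (0.24), Ndufb9 (0.22), Ndufs4 (0.22), Ndufa1 (0.21), Ndufb5 (0.19) and Ndufa9 (0.15), with log2 changes in parentheses and edgeR adjusted p from 0.00801 to 0.0463. Ndufab1, called in WT, had a log2 change of 0.14 in KO (edgeR adjusted p = 0.065, and 0.0209 with the mouse as a block), and Ndufa2 one of -0.05, with 58.2, 56.7 and 59.5 CPM in KO M0 and 61.9, 51.3 and 55.2 CPM in KO M2. By module, calls in KO were 4 of 8 genes in the NADH-binding module, 4 of 5 in the quinone module and 2 of 10 tested in the distal membrane arm (the Ndufb genes), and in WT they were 2 (1 higher, 1 lower), 1 and 0. Leaving out the 2 libraries with short transcripts gave 6 (5 higher, 1 lower), 4 and 1 in KO and 4 (3 higher, 1 lower), 3 and 2 in WT. Over all genes 52.8% were called in KO and 50% in WT, and after the omission 52.8% and 50.6%, so that the module counts, some of them above and some below these shares, are given as descriptions.

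Among the assembly factors in KO, Ndufaf8 (ENSMUSG00000078572, chr11:120098928-120100705), the partner that stabilizes the Ndufs7-modifying enzyme Ndufaf5, had 9.18, 8.7 and 9.65 CPM in M0 and 13.3, 10.6 and 11.5 CPM in M2. Its log2 change was 0.36 (SE 0.12 and adjusted p = 0.0189 by edgeR). Ndufaf4, which acts with Ndufaf3 on the quinone module, had 24.1, 23.7 and 24.4 CPM in KO M0 and 29.2, 29.2 and 29.5 CPM in KO M2, a log2 change of 0.28 (SE 0.07 and adjusted p = 0.00318 by edgeR). The 3 libraries of each group agreed closely for Ndufaf4 and there was no overlap.

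Ndufaf7 had 13.1, 13.5 and 12.6 CPM in KO M0 and 11, 9.37 and 8.75 CPM in KO M2, a log2 change of -0.44 (SE 0.10 and adjusted p = 0.00228 by edgeR). Ndufaf2 had 11.4, 11.6 and 12.8 CPM in KO M0 and 11.1, 9.7 and 10.1 CPM in KO M2, a log2 change of -0.21 (SE 0.08 and adjusted p = 0.0457 by edgeR). Both genes were lower in M2 than in M0 in all 6 mice. The other assembly factors, Ndufaf1, Ndufaf3, Ndufaf5 and Ndufaf6, were called in neither genotype; their log2 changes were between -0.12 and 0.16 in WT and between -0.05 and 0.22 in KO.

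The count in KO also depended on scaling and on single libraries. With library totals only 7 genes rose and 2 fell, with a median of 0.09 against -0.05 for all genes, and with limma on log2(TPM + 1) 9 rose and 3 fell, with a median of 0.07 against -0.06. It fell to 10 without KO M2 replicate 1, to 11 without KO M0 replicate 2 and to 12 without KO M0 replicate 1, and rose to 27 without KO M2 replicate 2. With the mouse as a block it was 22 (20 higher, 2 lower), against 58.2% of all genes (29.4% higher, 28.8% lower), where Ndufab1, Ndufb8, Ndufb10, Ndufc2 and Ndufv3 were added and Ndufa1 was lost. It was 16 without the 2 libraries with short transcripts (13 higher, 3 lower), against 52.8% (26.6% higher, 26.2% lower), and with the block in addition 22 (19 higher, 3 lower), against 58.2% (29.5% higher, 28.7% lower). Ndufs1, Ndufs3, Ndufs7, Ndufa8 and Ndufaf7 kept their calls in all 25 alternatives.

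The comparisons in WT and KO share no library. They had 5 called genes in common (Ndufs1, Ndufs3, Ndufa9, Ndufaf7 and Ndufaf2), which is 62.5% of the 8 called in WT and 27.8% of the 18 called in KO, each in the same direction in both. Over all tested genes the shares were 79.4% of the WT calls and 75.3% of the KO calls. With the 2 libraries with short transcripts left out, 11 Nduf genes were called in both, or 64.7% of 17 and 68.8% of 16, against 80.1% and 76.8% over all genes. Of the 25 alternatives, the call of Ndufa9 was lost in 18 in WT and in 8 in KO, and that of Ndufaf2 in 9 in KO. Calls in 1 genotype that were lost in 9 or more were those of Ndufa10 in WT (15 of 25) and of Ndufa1 (17 of 25) and Ndufa6 (9 of 25) in KO. By mouse, 15 of the 45 genes were higher in M2 than in M0 in all 6 mice, among them Ndufs1, Ndufs3, Ndufs7, Ndufs8 and Ndufv2, and 2 were lower in all 6. Of all tested genes, 28.1% were higher and 27.8% lower in all 6 mice.

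**Figure D3:**
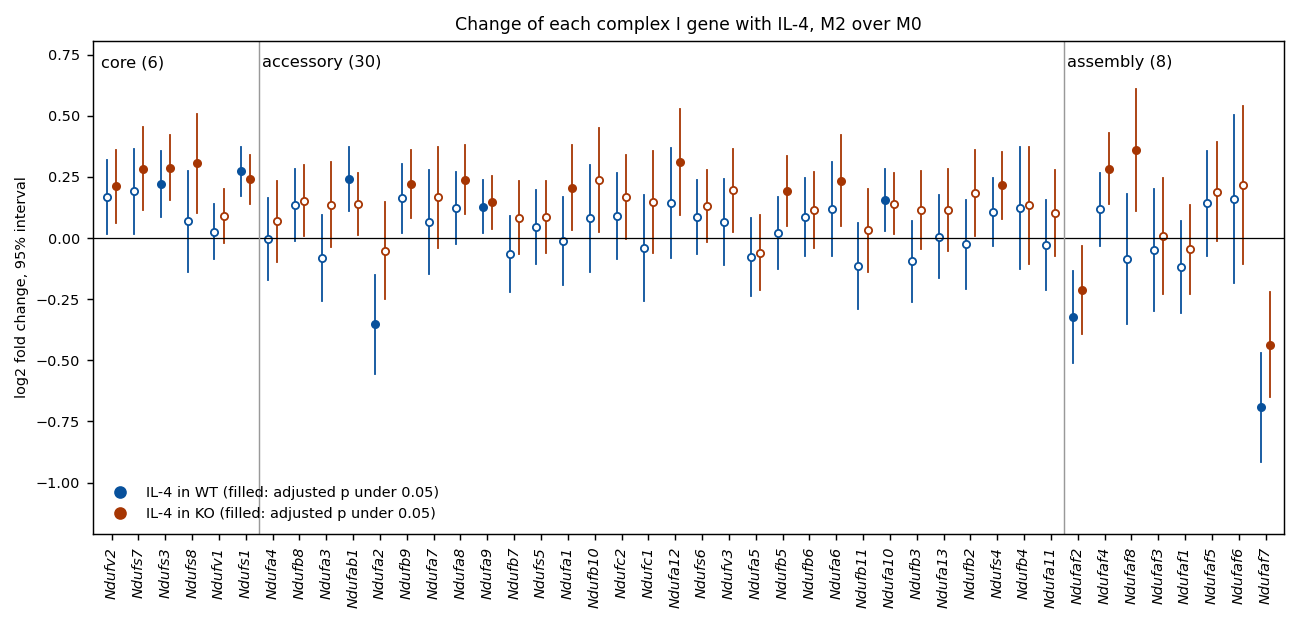
log2 change of M2 over M0 with its 95% interval for 44 of the 45 tested Nduf genes in WT and KO macrophages, by class; filled points have an edgeR adjusted p under 0.05 (8 in WT, 17 in KO). The core subunits drawn lie above 0 in both genotypes, although with library totals only Ndufs8 (-0.03) and Ndufv1 (-0.07) lie below 0 in WT, and Ndufaf7 and Ndufaf2 lie below 0 in both.

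Whether KO cells answered IL-4 otherwise than WT cells was tested as an interaction. None of the 45 genes was called (edgeR; 2 at an unadjusted p under 0.05 and 0 with DESeq2), where 3.24% of all genes were (1.11% with a larger and 2.13% with a smaller response in KO) and 17.8% had an unadjusted p under 0.05 (7.81% larger, 10% smaller). The response was larger in KO for 42 of 45 genes, by a median log2 of 0.10 against 0.01 for all genes, of which 51.3% had a larger response. Without WT M0 replicate 3 and KO M2 replicate 1 the median of the Nduf genes was -0.02, and 0 genes were called in a fit in which 4.42% of all genes were (1.58% larger, 2.83% smaller). These 2 libraries were the highest of their groups in the Nduf genes, so leaving them out was bound to lower this median. Its fall is therefore no test of the shift. The low libraries WT M0 replicate 1 and KO M2 replicate 2 were not left out together. Leaving out 1 library gave medians between 0.04 (without WT M0 replicate 3) and 0.15 (without KO M2 replicate 2). With the 2 libraries left out and the block in addition it was 0.00, again with 0 calls, against 11.9% of all genes (4.59% larger, 7.3% smaller).

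Ndufaf8 had the smallest p of the interaction. Its M0 and M2 values were 9.93, 8.58 and 11.5 against 9.04, 8.66 and 10.5 CPM in WT, so that IL-4 moved it little there, while all 3 KO mice rose. The difference was 0.45 (SE 0.17, 95% interval 0.08 to 0.81, edgeR adjusted p = 0.184). With the mouse as a block it was 0.44 (SE 0.11 and adjusted p = 0.0477 by edgeR), the only call among the Nduf genes in that fit, against 7.8% of all genes (2.79% larger, 5.01% smaller). Without the 2 libraries with short transcripts it was 0.25 (edgeR adjusted p = 0.412), and 0.33 with the block (edgeR adjusted p = 0.124). The next genes were Ndufa2 (0.30), Ndufb3 (0.21) and Ndufa3 (0.22), with edgeR adjusted p of 0.255, 0.331 and 0.344.

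Whether loss of IGF2BP2 changes complex I expression was asked in M0 and in M2. In M0, 0 of the 45 genes were called in KO against WT (edgeR, and likewise 0 with DESeq2), in a comparison in which 9.78% of all genes were called (5.5% higher, 4.27% lower). At an unadjusted p under 0.05, 3 were lower, against 25.3% of all genes (13.2% higher, 12.1% lower). Without the 2 libraries with short transcripts it was again 0, against 15.3% of all genes (8.81% higher, 6.45% lower). The median log2 change was -0.01, with values between -0.25 and 0.11, of which 17 of 45 were above 0, against 49.7% of all genes. This median rested on single libraries: it was -0.07 without WT M0 replicate 1, -0.04 without KO M0 replicate 3 and 0.015 without WT M0 replicate 3. Groups did not overlap for 7 genes, 6 lower and 1 higher, against 31.1% of all genes (14.9% lower, 16.2% higher). Core subunits differed little, with log2 changes of 0.00 for Ndufs1, -0.01 for Ndufs3, 0.01 for Ndufs7, 0.01 for Ndufs8, -0.01 for Ndufv1 and 0.00 for Ndufv2.

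The 4 genes with the smallest p in M0 were all lower in KO in their means. Ndufaf4 had 27.6, 29.2 and 27.1 CPM in WT, against 24.1, 23.7 and 24.4 CPM in KO, with a log2 change of -0.22 (SE 0.07 and adjusted p = 0.0638 by edgeR). Ndufa3, a small membrane-arm subunit, had 36.9, 40.8 and 42.5 CPM in WT, against 30.8, 34.3 and 36 CPM in KO, with a log2 change of -0.25 (SE 0.08 and adjusted p = 0.0709 by edgeR). In both genes all KO libraries lay below all WT libraries, although neither passed the threshold. Ndufaf4 was called without WT M2 replicate 1 (adjusted p = 0.0369 in edgeR) or replicate 2 (0.0275) and with only the 6 libraries of the comparison (0.0445). Ndufa3 was called without WT M0 replicate 1 (adjusted p = 0.0444 in edgeR), with library totals only (0.0466) and in both limma fits on log2 TPM (0.0412 and 0.0439).

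Ndufab1 had 51.2, 44.7 and 50.2 CPM in KO M0, all below the WT range of 52.5 to 54.3, with a log2 change of -0.13 (SE 0.06 and adjusted p = 0.193 by edgeR). Ndufa6, which binds Ndufab1 in the finished complex, had 29.1, 28.3 and 34.3 CPM in WT, against 26.1, 26.1 and 28.9 CPM in KO, where 1 KO library lay within the WT range, with a log2 change of -0.17 (SE 0.09 and adjusted p = 0.23 by edgeR).

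In M2, 0 of the 45 genes were called as well by edgeR, in a comparison in which 2.68% of all genes were called (1.21% higher, 1.46% lower). With an unadjusted p under 0.05 there were 8, of which 7 had higher and 1 lower levels in KO, against 20.3% of all genes (9.94% higher, 10.4% lower). The median log2 change was 0.05 and 34 of 45 values were above 0, against 49.7% of all genes. Without the 2 libraries with short transcripts, or KO M2 replicate 1 alone, the median was 0.00, and without KO M2 replicate 2 it was 0.09. Groups did not overlap for 7 genes, 6 higher and 1 lower, against 24.8% of all genes (13.1% higher, 11.7% lower).

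The gene with the smallest p was Ndufab1, with 62.4, 63.2 and 63.1 CPM in WT M2 and 57.5, 51.3 and 52.1 CPM in KO M2. All KO libraries were lower, in M2 as in M0. The log2 change was -0.23 (SE 0.06 and adjusted p = 0.0598 by edgeR). It passed the threshold with DESeq2 (adjusted p = 0.0181), without KO M2 replicate 1 (edgeR adjusted p = 0.0314), without WT M0 replicate 3 (edgeR adjusted p = 0.045) and without both (log2 change -0.28, edgeR adjusted p = 0.02, where 5.53% of all genes were called, 2.53% higher and 3% lower), and its adjusted p over all alternatives was between 0.0181 and 0.189. Ndufab1 is the member with the second highest share of uncertain reads, as given above.

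Among electron transport chain genes the study singled out 6 Nduf genes for KO M2, Ndufb10, Ndufb3, Ndufaf8, Ndufs8, Ndufa12 and Ndufa2. They were chosen on these samples, so their direction is no independent evidence. Their log2 changes were between 0.21 and 0.33, with a median of 0.24, and edgeR p was between 0.00764 and 0.0486 before and between 0.109 and 0.243 after adjustment over all genes. The study's differential genes were those with DESeq2 p under 0.05, with no adjustment named, which is a looser threshold than the adjusted p used here. All 6 lie under 0.05 before adjustment. The other 39 tested Nduf genes had a median of 0.05. Without the 2 libraries with short transcripts the 6 values were between 0.14 and 0.24, with a median of 0.18 and edgeR adjusted p between 0.128 and 0.28.

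Ndufb10 and Ndufb3 both belong to the distal membrane arm. Ndufb10 had 47.7, 50.3 and 56 CPM in WT M2 and 66.1, 57.7 and 61.1 CPM in KO M2. Ndufb3 had 31.1, 31.8 and 29 CPM in WT M2 and 39.6, 32.7 and 36.6 CPM in KO M2. Their groups did not overlap, with log2 changes of 0.26 (SE 0.10) and 0.24 (SE 0.08). Ndufs8 had 47.1, 49.9 and 55.6 CPM in WT M2 against 66.2, 56.9 and 57.9 CPM in KO M2, a log2 change of 0.25 (SE 0.09). Ndufa12 had 37.3, 39.2 and 44.3 CPM in WT M2 against 52.1, 41.9 and 46.9 CPM in KO M2, where 1 KO library lay within the WT range, a log2 change of 0.22 (SE 0.10). In all 4 genes replicate 1 was the highest KO library.

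2 marker lists had sums that ranged lower in KO. The summed TPM of 5 stromal markers was 11.1 to 21.8 in WT and 3.53 to 12.9 in KO without IL-4, and 12.5 to 22.9 in WT and 3.25 to 11 in KO with it, with none of the 5 at 0. None of the 5 was called in M0 or M2 (edgeR; 4 at an unadjusted p under 0.05 in M2), with log2 changes of -0.97 to -0.57 and -1.29 to -1.15. For 7 neutrophil and precursor markers the sums without IL-4 were 19.8 to 49.7 in WT and 15.5 to 16.8 in KO, and with IL-4 they were 13.2 to 31.4 in WT and 12 to 17.2 in KO, with Ly6g at 0 in every library. In M0 2 of the 3 tested ones were called lower in KO, S100a9 (log2 change -1.38, edgeR adjusted p = 0.0124) and Ltf (-2.09, edgeR adjusted p = 0.00759), and in M2 none was called. S100a9 was also lower with IL-4 in WT (-0.75, edgeR adjusted p = 0.0485). Total counts were also higher in every KO M2 library than in every WT M2 library. The part of these markers in the results was not tested, and after all libraries were thinned to the smallest total 0 Nduf genes were called in either genotype comparison and 18 for IL-4 in KO. In these bulk samples fewer cells of a type and less RNA per cell cannot be told apart.

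**Figure D4:**
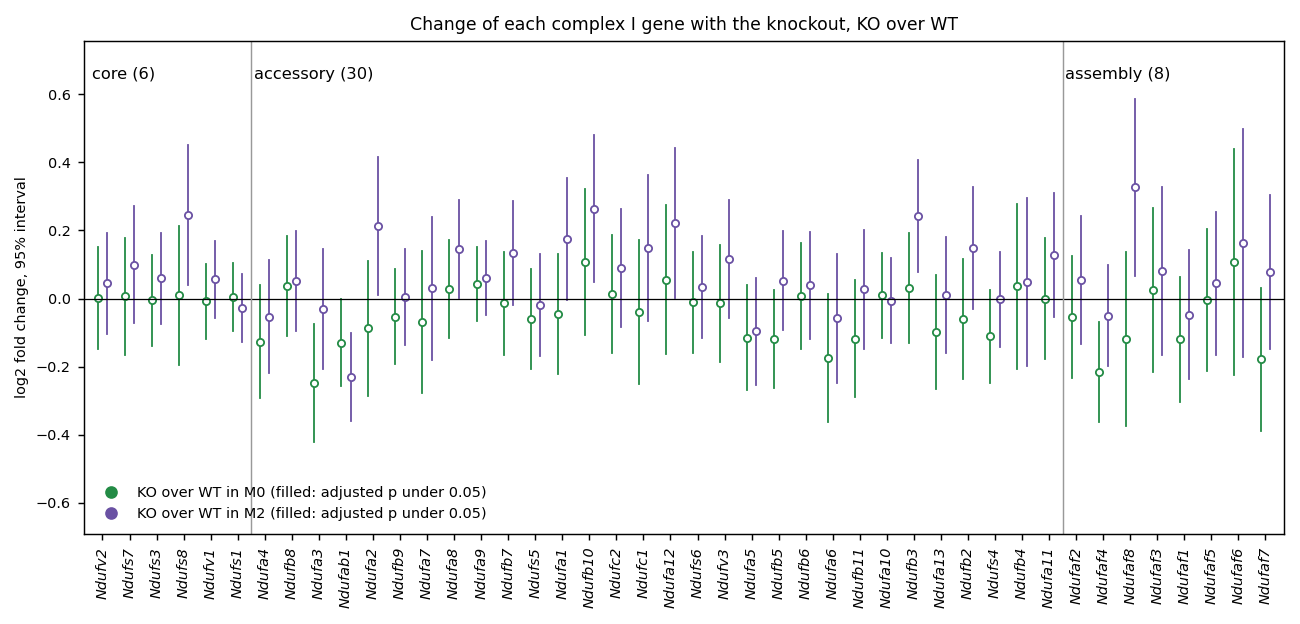
log2 change of KO over WT with its 95% interval for 44 of the 45 tested Nduf genes in M0 and M2 macrophages, by class. No point is filled, since no gene had an edgeR adjusted p under 0.05, and the core subunits drawn lie between -0.01 and 0.01 in M0.

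**Figure D5:**
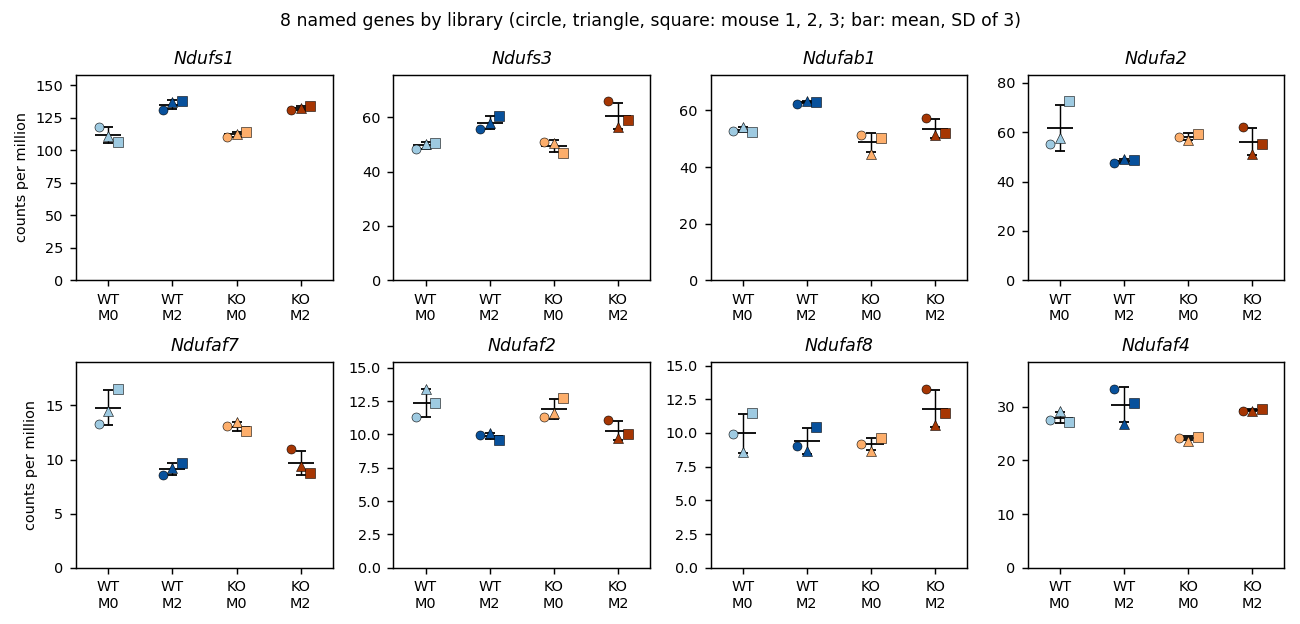
CPM of 8 Nduf genes in every library by group (linear axis from 0; symbols for mouse 1, 2 and 3; bar and whiskers for mean and SD, n = 3). Ndufs1 and Ndufs3 are higher and Ndufaf7 and Ndufaf2 lower in M2 in both genotypes, Ndufab1 has lower values in all KO than in all WT libraries within M0 and within M2, and the highest Ndufaf8 value (13.3 CPM) is KO M2 replicate 1.

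Genes that act on complex I but carry other symbols were examined as a list of 21, of which 12 were present in the library tables and all 12 were tested. IL-4 raised 2 and lowered 3 of them in WT and raised 5 and lowered 2 in KO, or 41.7% and 58.3% of them, close to the 50% and 52.8% of all genes. The largest change was that of Tmem126b, a subunit of the membrane-arm assembly complex that also holds Ndufaf1, Ecsit and Acad9. It had 18.5, 19.3 and 19.4 CPM in WT M0 and 39.1, 38.9 and 41.2 CPM in WT M2, a log2 change of 1.06 (SE 0.05 and adjusted p = 4.21e-09 by edgeR). In KO it had 19.9, 19.8 and 19.4 CPM in M0 and 39.3, 35.8 and 37.8 CPM in M2, a log2 change of 0.93 (SE 0.05 and adjusted p = 1.05e-08 by edgeR). Its partners moved less, with log2 changes of 0.24 and 0.20 for Ecsit and -0.12 and -0.05 for Ndufaf1 in WT and KO.

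Tmem186, another member of that assembly complex, was the only one of the 12 called in KO against WT in M0 (8.33%, against 9.78% of all genes; edgeR, with 2 of 12 at an unadjusted p under 0.05). It had 15.7, 17.2 and 17 CPM in WT M0 and 11.9, 12.3 and 13.9 CPM in KO M0, a log2 change of -0.39 (SE 0.08 and adjusted p = 0.00977 by edgeR), and 13.8, 12.6 and 11.7 CPM in WT M2 and 15.4, 14.5 and 14.9 CPM in KO M2. IL-4 lowered it in all 3 WT mice (log2 change -0.38, edgeR adjusted p = 0.00152) and raised it in all 3 KO mice (0.23, edgeR adjusted p = 0.0252), and the difference of these responses was 0.61 (SE 0.11 and adjusted p = 0.0128 by edgeR), again the only call of the 12 where 3.24% of all genes were called. Without the 2 libraries with short transcripts the difference was 0.57 (edgeR adjusted p = 0.0299), the value in M0 was -0.37 (edgeR adjusted p = 0.0188) and that of IL-4 in KO 0.20 (edgeR adjusted p = 0.0739). The fall of Tmem186 in WT was called in 25 of 25 alternatives, and its rise in KO in only 14 of 25. Lyrm2, named after its values were seen, had the same pattern, with IL-4 changes below 0 in all 3 WT and above 0 in all 3 KO mice. It was not called in the main fit: the log2 changes were -0.21 and 0.26 (edgeR adjusted p = 0.121 and 0.0548), and their difference was 0.47 (SE 0.15 and adjusted p = 0.115 by edgeR). Some alternatives without the block called the change in WT, namely library totals only (edgeR adjusted p = 0.0317) and both limma fits on log2 TPM (0.0372 and 0.0367). The change in KO was called without KO M0 replicate 3 (edgeR adjusted p = 0.0208) and without KO M2 replicate 2 (0.0243). The difference was called only with the block. With the block the change in KO and the difference were called (0.25 and 0.47, edgeR adjusted p = 0.0217 and 0.0433) and the change in WT was not (-0.21, edgeR adjusted p = 0.0612). Without the 2 libraries the difference was 0.44 (edgeR adjusted p = 0.197). Nubpl, which delivers iron-sulfur clusters to complex I, fell with IL-4 in WT and KO (-0.41 and -0.33, edgeR adjusted p = 0.00202 and 0.0056), as did Aifm1 (-0.28 and -0.20, edgeR adjusted p = 0.00327 and 0.0175), which is needed for import of small subunits.

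The rest of the respiratory chain was described by 38 nuclear subunits of complexes II to IV and ATP synthase. IL-4 raised 5 of them in WT (13.2%) and 8 in KO (21.1%) and lowered none (edgeR; at an unadjusted p under 0.05, 9 and 11 were higher and 0 lower), against 50% and 52.8% of all genes called. Their median log2 changes were 0.01 in WT and 0.13 in KO, beside 0.07 and 0.15 for the Nduf genes. With the 2 short-transcript libraries left out, 12 rose in WT and 7 in KO, against 25.8% and 26.6% of all genes, with medians of 0.07 and 0.06, beside 0.12 and 0.09 for the Nduf genes in that fit. Uqcrc1, a core protein of complex III, rose by 0.35 in WT and 0.40 in KO (edgeR adjusted p = 0.000105 and 2.85e-05), and the catalytic subunits of ATP synthase Atp5a1 and Atp5b rose by 0.17 to 0.19 in both. In KO against WT, 1 of 38 was called in M0, Atp5l, lower by a log2 change of -0.75 (edgeR adjusted p = 0.00888), and 0 in M2 (edgeR; 5 at an unadjusted p under 0.05), against 9.78% and 2.68% of all genes called, with medians of -0.04 and 0.04. After the same omission 4 were higher and 1 lower in M0 and 0 were called in M2, against 15.3% and 5.53% of all genes, with medians of 0.03 and 0.00.

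Regulators of mitochondrial biogenesis were a list of 9, of which 8 were tested. IL-4 raised Ppargc1b, a coactivator of mitochondrial genes that IL-4 is known to induce, by log2 changes of 1.13 in WT and 1.09 in KO (edgeR adjusted p = 0.000134 and 0.000132). Gabpa, a factor that binds ETS-type sites, fell by -0.29 and -0.37 (edgeR adjusted p = 0.00166 and 0.000176), and Esrra rose in KO by 0.27 (edgeR adjusted p = 0.00604) with a value of 0.04 in WT. In WT, 3 of the 8 rose and 2 fell (62.5%), in KO 2 rose and 1 fell (37.5%), against 50% and 52.8% of all genes, and 0 were called in KO against WT in M0 or M2 (edgeR; 2 at an unadjusted p under 0.05 in each, all lower), against 9.78% and 2.68% of all genes called and 25.3% and 20.3% at an unadjusted p under 0.05.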

How the data were processed

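Polyadenylated RNA (RIN above 9) of BMMs seeded at 500000 cells was sequenced with a directional kit in single reads of 75 nt. The authors deposited, per library, expected counts and TPM per gene on GRCm38 (mm10), with effective lengths and posterior SDs, in the layout RSEM writes. Per the study's methods the reads went through the Grape-nf pipeline, run with Nextflow; its quantifier and strand setting are not given in the sources used here. Their processing notes name FastQC 0.11.2 and DESeq2 1.40.2. The 4 DESeq2 tables hold the authors' comparisons, of which only gene symbols were used.

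Counts were rounded, filtered with filterByExpr by group and tested with edgeR 4.0.16 in R 4.3.3 (TMM, quasi-likelihood F test, 1 coefficient per group, 12 libraries), with Benjamini-Hochberg adjustment over 12846 genes, called at 0.05; the biological coefficient of variation was 8.08%. CPM are relative to TMM-scaled totals. SE was computed from the fold change and F. The script was tested on simulated data. Depth per library is given in the results, and the number of mice limits the precision. In the main fit, p-values measure the spread between libraries within groups, and M0 and M2 libraries of 1 mouse are treated as independent. Only the fits with the mouse as a block use the pairing. Alternatives used DESeq2 1.42.0 and limma 3.58.1 with trend on log2(TPM + pseudocount 1 or 0.1), other scalings, filters and library sets.

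Mouse numbers in the labels tie M0 to M2: deviations from group means correlated between 0.103 and 0.364 in all 6 pairs, so a blocked fit is given for IL-4. Between WT and KO of 1 number they lay between -0.068 and 0.04. Exonic overlaps and coordinates are from GENCODE M21. Genes were named by rule: the highest and lowest TPM of a class, called genes (else the 4 smallest p), the largest IL-4 changes, core and Ndufaf genes and the 6 Nduf genes the study singled out. Members and lists were chosen with earlier results of these data known, and Ndufb4 and the genes named outside the rule after their values were seen. A core subunit that is included in the counts and medians is not reported by itself here.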

Additional observations from a re-analysis of the deposited data

Results flagged for a closer look

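3 results differed between the genotypes by a test of the difference itself. Tmem186 had a difference between the IL-4 responses of 0.6138 on the log2 scale (edgeR adjusted p = 0.0128), lower with IL-4 in 3 of 3 WT mice and higher in 3 of 3 KO mice. It was called in 22 of 24 alternatives, with adjusted p between 0.000837 and 0.051. Ndufaf8 had a difference of 0.4395 with the mouse as a block (edgeR adjusted p = 0.0477) and of 0.45 without it (edgeR adjusted p = 0.184), and its adjusted p over the alternatives was between 0.0477 and 0.412. The block was the only 1 of 24 alternatives that called it, and without both libraries with short transcripts the difference was 0.25 (edgeR adjusted p = 0.412), or 0.33 with the block (edgeR adjusted p = 0.124). Lyrm2, which was below 0 with IL-4 in 3 of 3 WT mice and above 0 in 3 of 3 KO mice, had a difference of 0.4664 with the mouse as a block (edgeR adjusted p = 0.0433) and of 0.47 without it (edgeR adjusted p = 0.115). The block was likewise the only 1 of 24 alternatives that called this difference, with adjusted p between 0.0433 and 0.38. Single genes were not tested for outlying libraries, as each group has 3.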

How the results depend on the processing

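Counts of called Nduf genes in KO against WT were 0 in M0 and M2. In M0 the count was 1 (lower) with library totals only, with limma on log2(TPM + 1) and with limma on log2(TPM + 0.1), each time Ndufa3, and with only the 6 libraries of the comparison, Ndufaf4, and it was 0 to 1 when 1 library was left out (1 without WT M0 replicate 1, WT M2 replicate 1 or WT M2 replicate 2). In M2 it was 1 (lower, Ndufab1) with DESeq2 and with both short-transcript libraries left out, and 0 to 1 when 1 library was left out. For IL-4 in WT the count was 8, 6 to 12 when 1 library was left out, 13 with the replicate block, 17 with both short-transcript libraries left out and 21 with both left out and the block. For IL-4 in KO it was 18, 10 to 27 when 1 library was left out, 9 with library totals only, 22 with the replicate block and 22 with both short-transcript libraries left out and the block. For the difference between the IL-4 responses it was 0, and 1 with the replicate block. The library number as a block gave 0 calls in M0 and in M2, although the number does not pair the genotypes. Of the values of called genes, and of the genes with the smallest p or singled out by the study where none was called, 0 changed sign. Values near 0 did: in M0 17 Nduf genes were above 0, and 9 with library totals only. For IL-4 in WT 163 of 200 kept their side of the threshold, for IL-4 in KO 378 of 450, for KO against WT 89 of 96 in M0 and 164 of 168 in M2, and for the difference 95 of 96. With library totals only the median of all genes for IL-4 in WT was -0.10, and called genes of all kinds split into 2253 higher and 4283 lower in place of 3202 and 3226. The causes of these differences were not tested. The median log2 change of the Nduf genes in M0 (-0.0138) was above 0 without both short-transcript libraries (0.0153). Ndufa4l2 and Ndufb11b were too low to test, and the other Nduf genes had at least 93 counts in each library. For IL-4 in WT the SE was 0.16 for Ndufaf6, which has low counts, and 0.05 for Ndufs1.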
